A study of Mus musculus with 7 samples.

Results

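The cells described here hold many transcripts of Slc17a6, the gene of the glutamate transporter VGLUT2, and of Tacr1, which encodes the neurokinin 1 receptor for substance P. They were selected on measured counts: at least 8 Slc17a6 transcripts, at least 3 Tacr1 transcripts and at most 2 transcripts of Gad1 and Gad2 together. This rule took 370 of 384076 segmented cells (0.0963%), called Tacr1/VGLUT2 cells below. They made up 2.05% of the 18086 cells that met the Slc17a6 and Gad limits (VGLUT2 cells), and the other 17716 VGLUT2 cells served as comparison cells. The data come from Xenium, in which transcripts of a chosen panel, here 297 genes, are imaged one by one in the tissue and each is assigned to a segmented cell. All 7 sections are fresh-frozen coronal brain hemisections, 10 µm thick, from wild-type mice, with no treatment, strain or age given in the labels. They lie at an anterior position (bregma -0.58 mm, replicates 1 and 2), an intermediate position (bregma -0.70 to -0.82 mm, replicates 1 and 2) and a posterior position (bregma -0.94 mm, replicates 1, 3 and 4). Replicates 1 and 2 shared a slide, and replicates 3 and 4, both posterior, shared another. The labels do not say that replicates came from separate animals, so each p-value measures only how these sections vary, and that variation may be technical.

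Substance P is a tachykinin peptide released by neurons, and its receptor is coupled to Gq proteins, which activate phospholipase C, release calcium from internal stores and make neurons more excitable. VGLUT2 loads glutamate into synaptic vesicles and is the main vesicular glutamate transporter of most thalamic relay neurons, of many hypothalamic neurons and of the habenula, whereas most cortical and hippocampal pyramidal neurons use VGLUT1 (Slc17a7). Tacr1 is known in the forebrain mostly from interneurons and scattered projection neurons. A hemisection holds all of these tissues, and the place of each cell in the section was not used here.

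Sections held 50169 to 60720 cells and 17438577 to 23432215 transcripts, with a median of 278 (anterior replicate 1) to 390 (posterior replicate 4) transcripts per cell. Control probes and codewords, the background of the method, gave 0.379 to 0.87 counts per cell. Tacr1/VGLUT2 cells held a median of 525.5 transcripts and comparison cells 513. No full cell barcode occurred in more than 1 section.

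The rule kept a small share of the cells with Tacr1. At least 3 Tacr1 transcripts were found in 4690 cells, and 4122 of them (87.9%) had more than 2 Gad1 and Gad2 transcripts, Gad1 and Gad2 being the enzymes that make GABA. Among the 1318 cells with at least 8 Slc17a6 and at least 3 Tacr1 transcripts, 948 were left out for Gad and 370 (28.1%) were kept. The kept and left-out cells had like means of several genes that the rule did not use. Cells left out for Gad had on average 13.8 Meis2, 1.84 Cbln4 and 0.827 Prox1 transcripts. Tacr1/VGLUT2 cells had 10.4, 1.82 and 0.935, against 2.01, 0.971 and 10.2 in comparison cells. Cells on both sides of the Gad limit were close in Meis2: 105 kept cells with 2 Gad transcripts had 13.0 Meis2 transcripts on average, and 100 cells just outside with 3 had 14.9. Transcripts of adjacent cells can be assigned to a cell, and their part in these Gad counts was not tested.

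Within the limits, Tacr1 ran from 3 transcripts to 20, with a median of 4. Of the 370 cells, 123 had exactly 3, 84 had 4, 109 had 5 to 7 and 54 had 8 or more. Among comparison cells 16651 had none, 807 had 1 and 258, just outside the threshold, had 2. The mean level per section was 4.32 to 5.45 transcripts per cell, with a median section of 5.10. Slc17a6 was 17.8 to 22.2 transcripts per cell (median section 19.7) against 16.7 to 21.2 (median section 19.4) in comparison cells. These values chose the cells and are given as a description. As a background, 0.0354% of 16946 cells with at least 8 transcripts of Opalin, a gene of myelinating oligodendrocytes, and none of Slc17a6 had 3 or more Tacr1 transcripts, at a median depth of 173 transcripts. The 44 kept cells with 8 or 9 Slc17a6 transcripts had a median total of 375, and the 48 cells just outside, with 6 or 7, had 329.5.

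Of the 3 markers given for these cells, Slc17a6 and Tacr1 are genes of the rule, so only Cbln4 could be checked. Whether the cells form a single glutamatergic type was not tested. Cbln4, a secreted synaptic organiser given as their marker beside the genes of the rule, averaged 0.6 to 2.38 transcripts per cell over sections (median section 1.91), against 0.524 to 1.35 (median section 0.918) in comparison cells. The ranges overlapped. Cbln4 rose by 0.78 ± 0.22 (SE) on the log2 scale (edgeR adjusted p = 0.00782), in 6 of 7 sections. The call was lost with a minimum of 5 Slc17a6 transcripts (0.40, adjusted p = 0.104), in cells with few glial and vascular transcripts (0.42, 0.101) and in cells with fewer than 5 Necab1 transcripts (0.18, 0.594). Only 96 Tacr1/VGLUT2 cells (25.9%, 95% Wilson interval 21.7 to 30.6) had 3 or more Cbln4 transcripts, however, against 12.0% of comparison cells. The interval covers counting error only, and section shares among Tacr1/VGLUT2 cells ran from 6.67% to 36.7%. After every cell was thinned to 300 transcripts, the shares of Tacr1/VGLUT2 and comparison cells were 10.5% and 7.68%. No Gad transcript was found in 37.3% of Tacr1/VGLUT2 cells and in 62.8% of comparison cells, which describes the selected genes and is no test. With 3 or more transcripts in 25.9% of the cells, Cbln4 was a marker of a minority. In the closer comparison below it did not pass (log2 difference -0.0023). The cells are named here by the genes of their rule.

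**Figure D1:**
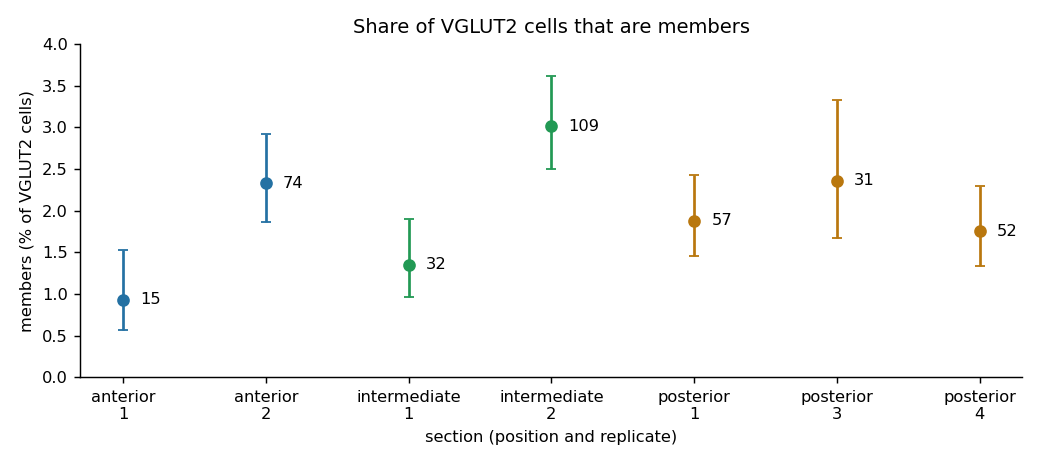
Tacr1/VGLUT2 cells ("members") as a percent of all VGLUT2 cells (y axis) in each of the 7 sections (x axis, position and replicate number). Points are section values, bars 95% Wilson intervals that cover counting error only, colours positions, and the number beside each point is the count of cells. The share runs from 0.932% in anterior replicate 1 to 3.01% in intermediate replicate 2, and the positions overlap.

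The share of VGLUT2 cells that met the Tacr1 limit was compared along the anterior to posterior axis. It was 0.932% (15 cells) and 2.33% (74 cells) in the anterior sections of replicates 1 and 2. It was 1.35% (32 cells) and 3.01% (109 cells) in the intermediate sections of replicates 1 and 2. In the posterior sections it was 1.88% (57 cells), 2.36% (31 cells) and 1.75% (52 cells) in replicates 1, 3 and 4. Both sections of replicate 2 stood above both anterior and intermediate sections of replicate 1, and all 3 posterior sections lay below intermediate replicate 2. Posterior sections averaged 2.0% ± 0.32 (SD, n = 3) and the others 1.91% ± 0.94 (SD, n = 4), a difference of 0.0914 percentage points (two-sided exact permutation p = 0.914). The smallest p this design allows is 0.0571, so no call was possible. The sign of the difference turned without anterior replicate 1 (-0.233), intermediate replicate 1 (-0.0936) or posterior replicate 3 (-0.0903).

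Sums of counts over the Tacr1/VGLUT2 cells and over the comparison cells of each section were then tested gene by gene, with the section as a block. All 370 cells entered, since each section held at least 10. Of 291 genes tested, 86 were higher in Tacr1/VGLUT2 cells (29.6% of those tested) and 94 were lower (32.3%) at an edgeR adjusted p under 0.05. So many genes passed that, in each direction, about 1 in 3 genes of any list is near this background. In 1 direction or the other, 180 of the 291 genes passed. The section means did not overlap for 40 genes that were higher (13.7%) and 40 that were lower (13.7%). The median log2 difference over all tested genes was -0.12, and -0.19 with library size in place of TMM scaling.

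The largest decreases were led by C1ql2, Prox1 and genes of thalamic relay neurons. Prox1, a homeodomain transcription factor, was at 0.133 to 1.41 transcripts per cell in Tacr1/VGLUT2 cells (median section 0.827) and at 6.91 to 13.9 (median section 11.0) in comparison cells. The ranges did not overlap, and the log2 difference was -3.58 ± 0.28 (SE, adjusted p = 1.38e-06). Rorb, a nuclear receptor of sensory relay and layer 4 neurons, was at 1.09 to 2.47 (median section 2.03) against 5.78 to 11.8 (median section 8.39), with a log2 difference of -2.12 ± 0.20 (adjusted p = 4.54e-06). C1ql2, a secreted C1q-like synaptic protein, was at 0 to 0.123 (median section 0.0385) against 0.253 to 1.14 (median section 0.701), with a log2 difference of -3.72 ± 0.37 (adjusted p = 7.29e-06). Each of the 3 genes was lower in 7 of 7 sections with no overlap. No Tacr1/VGLUT2 cell had 3 or more C1ql2 transcripts, which allows a share of up to 0.811% (3 counts over 370 cells; the Wilson upper limit is 1.03%), while 7.78% of comparison cells did. Of the 5 relay markers tested, all were lower, the others being Ramp3 (a calcitonin-family receptor partner, log2 difference -2.96 ± 0.44), Car4 (a membrane carbonic anhydrase, -2.79 ± 0.29) and Calb1 (calbindin, -0.45 ± 0.15). The Calb1 call was lost without intermediate replicate 2 (adjusted p = 0.0511), posterior replicate 1 (0.102) or posterior replicate 4 (0.0854). The summed level of that marker list, Slc17a6 included, was 21.9 to 29.1 transcripts per cell in Tacr1/VGLUT2 cells and 38.2 to 52.3 in comparison cells.

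Other large decreases were in Rab37 (a vesicle GTPase, -2.85), Gjc1 (the gap junction protein connexin 45, -2.58), Cwh43 (-2.41), Tanc1 (a postsynaptic scaffold, -2.38), Neurod6 (a transcription factor of pyramidal neurons, -2.22), Myo5c (an unconventional myosin, -2.14), Arhgef5 (a guanine nucleotide exchange factor, -2.04) and Stard5 (a lipid transfer protein, -1.98), in log2 units and in 7 of 7 sections each. Sox17, an endothelial transcription factor, was also lower by the test (-2.19 ± 0.65) at 0 to 0.0968 transcripts per cell. Markers of some other cell types also differed. The summed level of 13 endothelial markers was 1.13 to 3.05 transcripts per cell (median section 2.02) against 3.74 to 6.68 (median section 5.03), and 12 of the 13 passed as lower. The summed level of 7 astrocyte markers was 9.8 to 12.4 (median section 11.7) against 14.0 to 19.7 (median section 16.5), with 4 lower. Neither pair of ranges overlapped, and none of these markers was at 0 in every section. The summed level of 3 oligodendrocyte markers was 0.867 to 4.5 (median section 2.56) against 3.19 to 5.96 (median section 3.72), lower in 6 of 7 sections, with Sox10 and Gjc3 lower by the test. The summed level of 7 mural markers, with Nr2f2 among them, was higher, at 5.0 to 7.65 against 3.36 to 5.57. Of the mural markers only Nr2f2 passed as higher, while Inpp4b was lower and 5 did not pass. None of 7 microglia and macrophage markers and none of 3 oligodendrocyte precursor markers passed. Of 11 fibroblast and meningeal markers 3 were higher and 2 lower. In cells with few glial and vascular transcripts, 66 genes were higher and 74 lower.

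**Figure D2:**
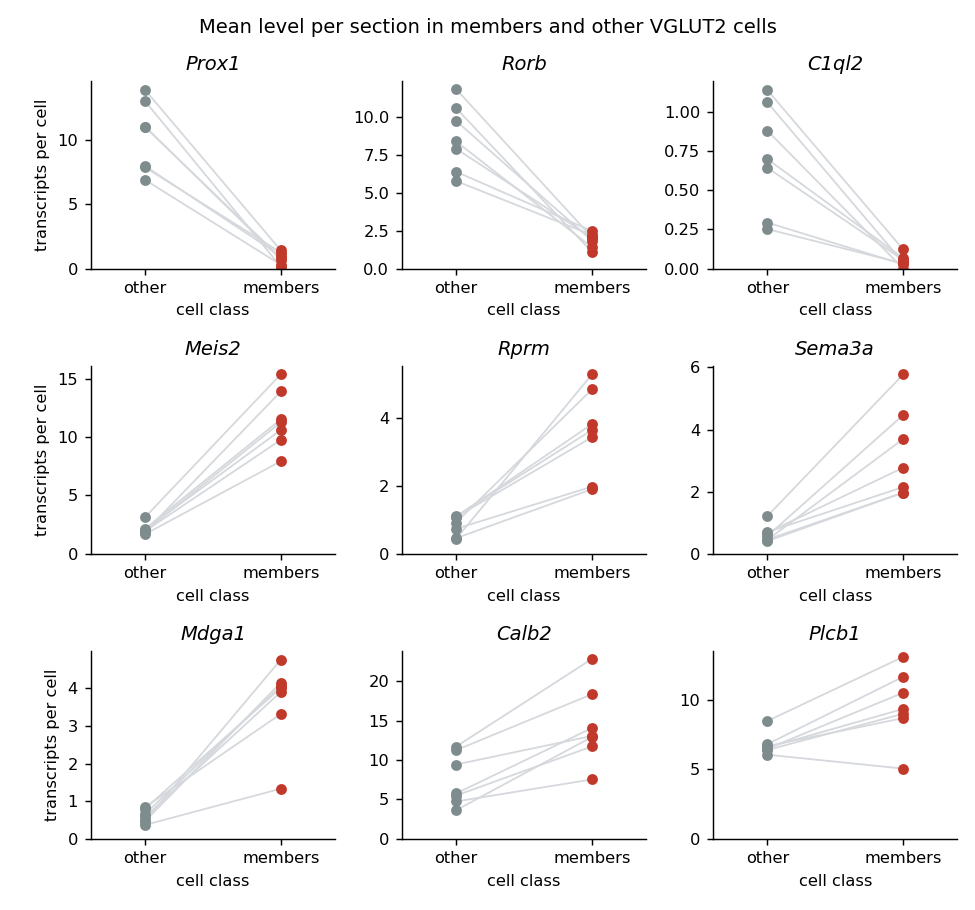
Mean transcripts per cell (y axis, linear from 0, its range set for each gene) of 9 genes in comparison cells and in Tacr1/VGLUT2 cells ("members"). Each point is 1 of 7 sections, and a line joins the same section. Prox1, Rorb and C1ql2 are lower in members in every section, and Meis2, Rprm, Sema3a, Mdga1 and Calb2 are higher in every section, while Plcb1 is higher in 6 of 7.

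Meis2, Mdga1, Sema3a and Rprm were among the 15 largest increases. Meis2, a homeodomain transcription factor of striatal, amygdalar and hypothalamic neurons, was at 7.94 to 15.4 transcripts per cell (median section 11.3) against 1.67 to 3.13 (median section 1.94). The ranges did not overlap, and Meis2 had the smallest adjusted p of the panel (log2 difference 2.51 ± 0.13 SE, adjusted p = 2.34e-08). Mdga1, a membrane protein that binds neuroligins and limits synapse formation, was at 1.33 to 4.77 (median section 4.02) against 0.369 to 0.842 (median section 0.579), a log2 difference of 2.66 ± 0.21 (adjusted p = 1.38e-06). Anterior replicate 1, with 15 cells, gave the lowest Mdga1 value, and the ranges still did not overlap. Sema3a, a secreted repellent of growing axons, was at 1.96 to 5.77 (median section 2.77) against 0.405 to 1.21 (median section 0.565), a log2 difference of 2.40 ± 0.20 (adjusted p = 1.80e-06). Rprm, a gene induced by p53, was at 1.89 to 5.27 (median section 3.64) against 0.436 to 1.1 (median section 0.914), a log2 difference of 2.14 ± 0.24 (adjusted p = 1.82e-05).

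The other large increases took in receptors, enzymes and adhesion proteins. In log2 units they were Npy2r (a receptor of neuropeptide Y, 2.71), Pde11a (a cyclic nucleotide phosphodiesterase, 2.67), Ndst4 (a heparan sulfate modifying enzyme, 2.41), Cpne8 (a calcium-dependent membrane-binding protein, 2.01), Cntnap4 (a neurexin-like adhesion protein, 1.92), Arhgap6 (a GTPase activating protein, 1.89), Trpc4 (a cation channel, 1.82), Tmem255a (1.67), Rab3b (a GTPase of synaptic vesicles, 1.65), Nwd2 (1.64) and Plcxd3 (a phospholipase C-like protein, 1.62). Each was higher in 7 of 7 sections. Npy2r and Pde11a were sparse, at 0.216 to 0.808 and 0.0667 to 0.649 transcripts per cell. In cells with no Gad transcript at all, where 5 sections could be fitted, the differences were 2.88 for Meis2, 3.39 for Mdga1, 2.68 for Sema3a, 1.98 for Rprm and -2.77 for Prox1. The counts in those cells were 58 genes higher and 58 lower.

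The panel held 9 genes of a list for tachykinin and phospholipase C signalling, Tacr1 among them, and 8 could be tested. Of these 4 were higher, 1 was lower and 3 did not pass, with a median log2 difference of 0.37 against -0.12 over all tested genes. Plcb1, a phospholipase C that Gq proteins activate, was at 5.05 to 13.1 transcripts per cell (median section 9.35) against 6.06 to 8.48 (median section 6.57). The ranges overlapped, and posterior replicate 1 held the lowest value in both classes. On scaled counts Plcb1 was higher in 7 of 7 sections (log2 difference 0.53 ± 0.12 SE, adjusted p = 0.00175), and in cells with no Gad transcript it was 0.47 (adjusted p = 0.100). Trpc4, a channel that opens downstream of this enzyme family, was at 1.06 to 1.51 against 0.263 to 0.592 with no overlap. Prkca, a protein kinase C that diacylglycerol and calcium activate, differed by 0.41 ± 0.16 (adjusted p = 0.0369) in 5 of 7 sections. Its call was lost without any of 4 sections (anterior replicate 2, intermediate replicate 2, posterior replicate 3 or 4), with adjusted p from 0.0787 to 0.0972. Inpp4b, a phosphoinositide phosphatase, differed by -0.51 ± 0.19 (adjusted p = 0.0302). The Inpp4b call was lost when any of 5 sections was left out (anterior replicate 1, either intermediate section, or posterior replicate 1 or 4), with adjusted p from 0.0631 to 0.0983. Plch1, Plcxd2 and Pip5k1b did not pass. Genes of the tachykinin peptides were not analysed here.

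Of 13 neuropeptide and receptor genes tested, 6 were higher and 1, Ramp3, was lower. Besides Npy2r, the peptide gene Nts (neurotensin) was at 0 to 3.12 transcripts per cell (median section 1.64) against 0.132 to 0.495 (median section 0.306). It was higher in 6 of 7 sections, with no transcript among the 15 cells of anterior replicate 1 (log2 difference 2.35 ± 0.43, adjusted p = 0.00056). Crh (corticotropin-releasing hormone, 1.69 ± 0.48, adjusted p = 0.00844) and Penk (the enkephalin precursor, 1.14 ± 0.42, adjusted p = 0.0335) were each higher in 6 of 7 sections. Oprm1, the mu opioid receptor, differed by 0.57 ± 0.22 (adjusted p = 0.0386) in 5 of 7, and had the opposite sign in cells with no Gad transcript (-0.12). Its call was lost without anterior replicate 1, intermediate replicate 1 or 2, or posterior replicate 3 (adjusted p 0.0739 to 0.121). The Penk call was lost without intermediate replicate 1 (0.0946), posterior replicate 1 (0.0817) or posterior replicate 4 (0.0981). Sst (somatostatin) differed by 2.47 ± 0.58 but was at 0 to 0.422 transcripts per cell and higher in 5 of 7 sections. These peptides sat in few cells: 43 cells had 3 or more Nts transcripts, 38 had Penk, 15 had Crh and 8 had Sst.

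Against all other VGLUT2 cells, marker lists of other neuron types moved in both directions. The summed hypothalamus markers (Crh, Vip and Meis2) were at 8.17 to 16.8 transcripts per cell against 1.87 to 3.54, and the 5 markers of striatal projection neurons, which share Meis2, at 12.1 to 18.0 against 3.85 to 5.45. The 3 habenula markers (Nwd2, Pcdh10 and Chat) were at 9.6 to 14.8 against 5.73 to 8.32, and each passed as higher. The 4 markers of paraventricular and midline thalamus were at 17.3 to 36.4 against 8.24 to 23.0, with Calb2, Nts and Htr2c higher. The 9 markers of cortical excitatory neurons were at 9.47 to 16.9 against 17.9 to 28.3, with 5 lower and 2, Tle4 and Rprm, higher. Meis2 alone, at 7.94 to 15.4 against 1.67 to 3.13, made up most of the first sum, and of the striatal list only Meis2 and Penk passed as higher. The first 3 lists and the cortical one did not overlap between classes, while the midline list did.

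Lists of synaptic and membrane genes were divided between directions. Of 11 cerebellins and synaptic organisers tested, 5 were higher (Mdga1, Cntnap4, Cntnap5b, Cbln4 and Igsf21) and 5 lower (C1ql2, Syndig1, Cbln1, Cntn6 and Nectin3). Cbln1, a cerebellin that links presynaptic neurexins to glutamate receptors, differed by -0.59 ± 0.18 (adjusted p = 0.0152), the opposite sign from Cbln4, and its call was lost without anterior replicate 1 (0.0557) or intermediate replicate 1 (0.0682). That of Nectin3 was lost without any of 6 sections, all but posterior replicate 4 (adjusted p 0.0585 to 0.111). Of 8 genes of vesicle release, 5 were higher and 1, the active zone protein Rims3, was lower. Among them Unc13c, a priming factor, was at 3.06 to 4.65 transcripts per cell (median section 3.70) against 0.939 to 2.49 (median section 1.49) with no overlap, and Rims3 at 7.13 to 11.2 against 12.6 to 21.7. Sncg (gamma-synuclein, 1.38 ± 0.22) and Syt6 (a synaptotagmin, 1.17 ± 0.35) were also higher, but Syt6 was lower in the closer comparison below.

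Of 9 genes for ion channels and their subunits, 5 were higher, with Trpc4, Kctd8, Cacna2d2 and Kctd12 among them, and 1, Kcnh5, was lower. Kctd12, an auxiliary subunit of GABA-B receptors, was at 3.8 to 6.26 transcripts per cell against 2.1 to 3.33 with no overlap (log2 difference 0.89 ± 0.12), and its relative Kctd8 differed by 1.56 ± 0.32. Of 9 genes for glutamate, serotonin and acetylcholine receptors and their partners, 5 were higher and 2 were lower. Htr2c, a Gq-coupled serotonin receptor, was at 2.88 to 5.87 (median section 3.86) against 1.14 to 3.63 (median section 1.55), a log2 difference of 1.32 ± 0.20 in 7 of 7 sections. Grik3, a kainate receptor subunit, was at 0.246 to 0.808 against 0.828 to 1.23 with no overlap (-0.93 ± 0.23). Lypd6, a modulator of nicotinic receptors, differed by 1.02 ± 0.21. The call for Htr1f, another serotonin receptor (0.73 ± 0.25, adjusted p = 0.0239), was lost without intermediate replicate 1 (adjusted p = 0.0596) or intermediate replicate 2 (0.0905).

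Of 7 calcium-binding proteins, 4 were higher (Hpcal1, Cabp7, Calb2 and Necab2) and 2 lower (Pvalb and Calb1). Calb2 (calretinin) was at 7.54 to 22.9 transcripts per cell (median section 13.1) against 3.63 to 11.7 (median section 5.76), a log2 difference of 1.07 ± 0.17 (adjusted p = 0.000153). The ranges overlapped, although Calb2 was higher in 7 of 7 sections. Pvalb (parvalbumin) was at 0.226 to 0.923 against 0.497 to 2.9, a log2 difference of -1.0 ± 0.24. Of 18 genes of axon guidance and adhesion, 7 were higher and 5 lower. Nrp2, a receptor of class 3 semaphorins, was at 3.72 to 6.84 (median section 4.75) against 1.3 to 2.22 (median section 1.75) with no overlap (1.57 ± 0.15, adjusted p = 6.95e-06). Sema3d differed by 1.58 ± 0.36, and the ephrin receptor genes Epha8 and Epha4 by -1.63 ± 0.24 and -1.43 ± 0.22.

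Of 26 transcription factors, 5 were higher and 10 lower, with a median log2 difference of -0.40. The higher ones were Meis2, Bcl11b (1.46 ± 0.22), Nr2f2 (1.10 ± 0.21), Sox11 and Tle4, and the lower ones included Prox1, Neurod6, Rorb, Foxp1 (-1.35 ± 0.16) and Tox (-0.75 ± 0.17). Of 4 activity-regulated genes, Nrn1 (neuritin, -0.44 ± 0.12) and Arc (-0.54 ± 0.21, adjusted p = 0.0395) were lower, and Fos and Bdnf did not pass. Arc turned positive in cells with no Gad transcript (0.11) and at 12 or more Slc17a6 transcripts (0.49), and its call was lost when 1 of 4 sections was left out (anterior replicate 1, intermediate replicate 1, posterior replicate 1 or posterior replicate 3). Among 3 tested genes of vesicular transporters and transmitter enzymes, Slc17a7 was lower (-0.94 ± 0.18, adjusted p = 0.000763) and Chat, the enzyme of acetylcholine synthesis, higher (1.81 ± 0.65, adjusted p = 0.0283). Chat was higher in 5 of 7 sections, and its call was lost without intermediate replicate 1 (adjusted p = 0.101), posterior replicate 1 (0.0986) or posterior replicate 3 (0.0828). Of 78 called genes followed through these fits, 68 kept their call whichever section was left out. The exceptions were Arc, Calb1, Cbln1, Chat, Htr1f, Inpp4b, Nectin3, Oprm1, Penk and Prkca.

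**Figure D3:**
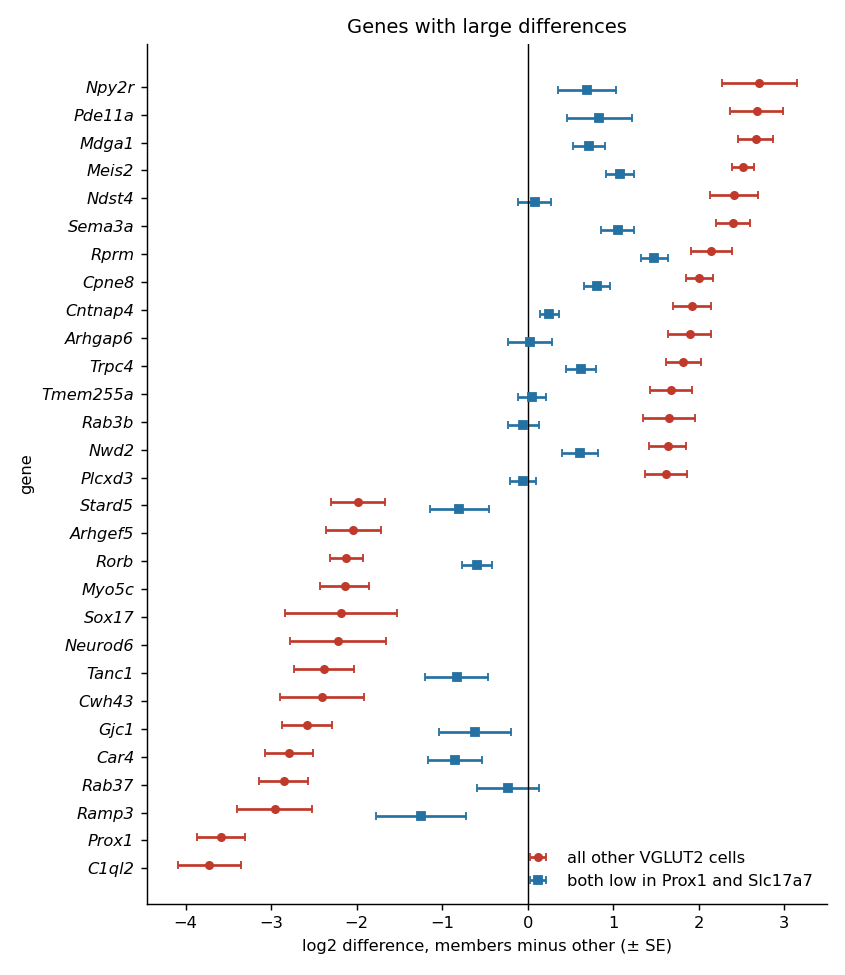
Log2 difference between Tacr1/VGLUT2 cells ("members") and other VGLUT2 cells (x axis, bars ± SE) for genes with large differences that the text names (y axis). Red circles compare with all other VGLUT2 cells, and blue squares compare only cells with at most 1 Prox1 and at most 2 Slc17a7 transcripts. For every gene tested in both, the second difference is the smaller in size, and those of Ndst4, Arhgap6, Tmem255a, Rab3b and Plcxd3 lie near 0.

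Since comparison cells were mostly rich in Prox1 or Slc17a7, a closer comparison was added after these values were seen. It kept the 260 Tacr1/VGLUT2 cells and 2883 comparison cells with at most 1 Prox1 and at most 2 Slc17a7 transcripts. Median totals were 502 and 426 transcripts. Of 247 genes tested, 39 were higher (15.8%) and 36 lower (14.6%) by edgeR. On raw transcripts per cell, not scaled for these totals, section means did not overlap for 13 higher genes (5.26%) and 2 lower genes (0.81%). Without posterior replicate 1 the counts were 25 and 22, without posterior replicate 4 they were 23 and 19, and without both sections of replicate 2 they were 16 and 21. Sums over replicate numbers with the number as a block gave 23 and 5. With Prox1 and Slc17a7 both at 0, where 5 sections could be fitted, 3 genes were higher and none lower.

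In the closer comparison Rprm had the largest increase, at 2.0 to 5.0 transcripts per cell (median section 2.96) against 0.682 to 1.24 (median section 1.02). The ranges did not overlap (log2 difference 1.48 ± 0.16 SE, adjusted p = 0.000281). Meis2 was at 8.61 to 13.5 (median section 12.6) against 2.56 to 6.70 (median section 5.45), also without overlap (1.08 ± 0.17, adjusted p = 0.00323). Bcl11b, a zinc finger transcription factor of striatal and deep-layer neurons, was at 0.673 to 1.62 against 0.238 to 0.54 (1.07 ± 0.23, adjusted p = 0.00961). Nrp2 was at 3.0 to 5.52 against 1.34 to 2.66 (0.87 ± 0.18), and Cpne8 at 1.43 to 3.10 against 0.817 to 1.22 (0.81 ± 0.15). These 5 genes were higher in 7 of 7 sections with no overlap.

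Among the genes linked to the receptor, Plcb1 was at 5.89 to 10.7 transcripts per cell (median section 9.21) against 4.04 to 6.14 (median section 4.44), a log2 difference of 0.67 ± 0.09 (adjusted p = 0.00128) in 7 of 7 sections, with overlapping ranges. With any Slc17a7 level allowed, Plcb1 had the opposite sign (-0.43, adjusted p = 0.0532). Trpc4 differed by 0.62 ± 0.18 (adjusted p = 0.0253), and its call was lost without either anterior section or posterior replicate 1 or 4 (adjusted p 0.0527 to 0.0841). Plcxd2 was lower (adjusted p = 0.0436), a call lost in all 7 fits without 1 section (0.0560 to 0.108), and Plch1, Plcxd3, Pip5k1b, Inpp4b and Prkca did not pass, so 2 of 8 tested genes of this list were higher and 1 lower. Sema3a (1.05 ± 0.19), Eepd1 (1.18 ± 0.25), Shisa6 (an AMPA receptor partner, 0.83 ± 0.22), 2010300C02Rik (0.80 ± 0.15) and Sncg (0.73 ± 0.20) completed the 10 largest increases among called genes that were higher in 7 of 7 sections. The calls were lost for Shisa6 without posterior replicate 4 (adjusted p = 0.0534) and for Sncg without anterior replicate 1 (0.0610) or anterior replicate 2 (0.0523). With any Slc17a7 level allowed, 15 of the 75 called genes had the opposite sign, among them Plcb1, Eepd1 (-0.041) and 2010300C02Rik (-0.35).

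Several differences of the wider comparison were not called in the closer one. Cbln4 was at 0.643 to 2.36 transcripts per cell against 0.746 to 2.33, a log2 difference of -0.0023 ± 0.18 (adjusted p = 0.990), which does not show that the levels are equal. Npy2r, Nts, Crh and Penk did not pass. Calb2, Cabp7, Htr2c, Htr1f, Nr2f2, Tle4, Unc13c, Rab3b, Kctd8, Cacna2d2, Cntnap4, Igsf21 and Sema3d, higher in the wider comparison, did not pass either. Neither did Foxp1, Tox, Rims3, Grik3, Kcnh5 and Epha8, which were lower there. Cbln1 was higher here (0.34 ± 0.12, edgeR adjusted p = 0.0486) after being lower in the wider comparison. That call was lost in all 7 fits without 1 section (0.0529 to 0.157), and the sign turned in cells with few glial and vascular transcripts (-0.035). The 10 largest decreases among genes lower in 7 of 7 sections were Cd93 (-2.09 ± 0.44), Igf2, Adgrl4, Nostrin, Emcn, Pecam1, Cldn5 (-1.48 ± 0.31), Adgrf5, Acvrl1 and Ly6a, most of them genes of endothelial cells. The summed endothelial markers were at 1.21 to 3.14 transcripts per cell in Tacr1/VGLUT2 cells and at 2.98 to 4.89 in comparison cells, and the astrocyte markers, at 8.64 to 12.0 against 9.51 to 15.03, were also lower in 7 of 7 sections. All 3 oligodendrocyte markers tested and 2 of 5 microglia markers (Siglech and Trem2) passed as lower too. Their part in these results was not tested. In cells with few such transcripts, 21 genes were higher and 9 lower. Of 33 called genes followed through fits without 1 section, 20 kept their call in all 7. The exceptions were Acvrl1, Adgrf5, Nostrin, Shisa6, Sncg, Calb1, Cbln1, Ebf3, Hpcal1, Oprm1, Plcxd2, Rorb and Trpc4. Among neuronal genes, Pvalb (-1.10 ± 0.19, adjusted p = 0.00612), Rorb (-0.59 ± 0.18), Epha4 (-0.78 ± 0.23), Calb1 (-0.47 ± 0.13) and Ebf3 (-1.64 ± 0.54, adjusted p = 0.0436, in 5 of 7 sections) were lower.

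The counts for the remaining lists of the closer comparison stand beside 15.8% of all 247 genes tested higher and 14.6% lower. For neuropeptides and receptors 1 of 9 was higher (Oprm1, 0.46 ± 0.15) and 1 lower, for cerebellins and synaptic organisers 3 of 10 were higher, and for calcium-binding proteins 2 of 7 were higher (Necab2, 0.61 ± 0.14, and Hpcal1) and 2 lower. Of 22 transcription factors 3 were higher and 4 lower, and of 17 genes of axon guidance and adhesion 2 were higher and 1 lower. Of 8 genes for ion channels 2 were higher, and of 9 for glutamate, serotonin and acetylcholine receptors 3 were higher. Of 7 for vesicle release 1 was higher (Sncg) and 1 lower (Syt6). Syt6 was higher in the wider comparison, and its sign turned with any Slc17a7 level allowed. Of 4 activity-regulated genes 1, Arc, was higher (0.67 ± 0.17). With any Slc17a7 level allowed, Arc was lower (-1.98, adjusted p = 4.9e-05). Chat, the 1 transmitter enzyme tested, did not pass. Summed cortical markers had a median section of 11.0 transcripts per cell against 7.37, higher in 6 of 7 sections. The relay sum was higher in 7 of 7 (26.1 against 22.6), but it holds Slc17a6, a gene of the rule. Of the 4 relay genes tested, 0 were higher and 2, Rorb and Calb1, were lower. Midline markers were higher in 3 of 7 (22.5 against 22.9). Hypothalamus, striatal and habenula sums were higher in 7 of 7. Only Meis2, which the hypothalamus and striatal lists share, passed in them (1 of 2 and 1 of 5 tested genes). Of the 3 habenula genes only Nwd2 passed. All these sums are raw counts, at median totals of 502 and 426 transcripts. Prox1 and Slc17a7, which set these limits, are in the relay and cortical lists.

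**Figure D4:**
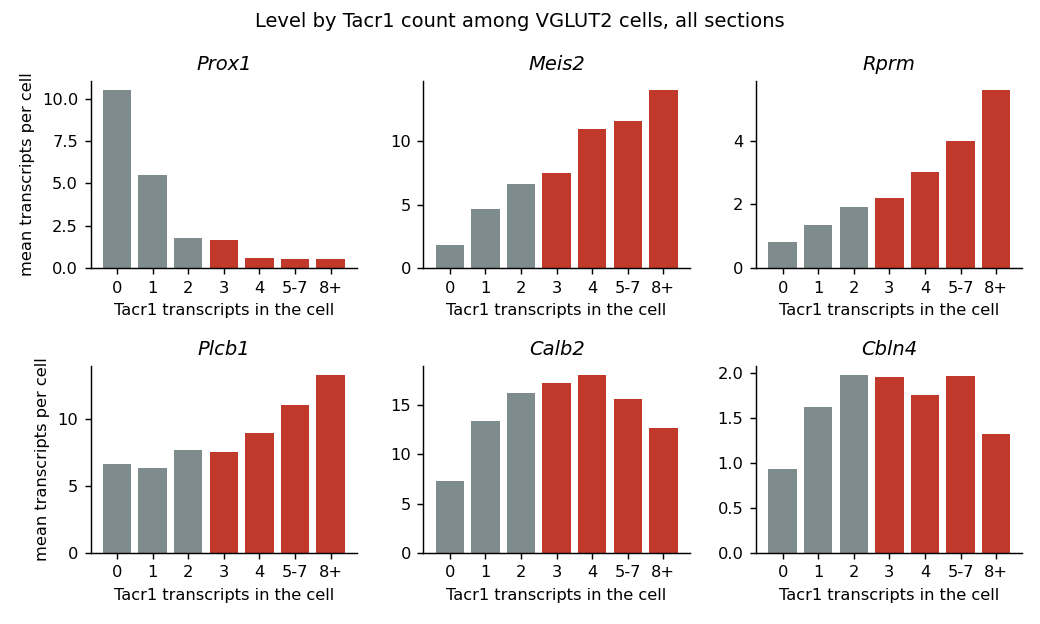
Mean transcripts per cell (y axis, linear from 0) of 6 genes by the number of Tacr1 transcripts in the cell (x axis), over all VGLUT2 cells of the 7 sections. Grey bars are comparison cells (0 to 2 Tacr1 transcripts) and red bars Tacr1/VGLUT2 cells (3 or more). Prox1 falls from 10.5 at 0 to 0.519 at 8 or more, Meis2 rises from 1.82 to 14.0, and Calb2 is highest at 4.

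Levels of other genes changed by degrees over the Tacr1 count rather than at the threshold of 3. Median totals ran from 494 to 574 transcripts over the classes of Tacr1 count, with the highest in cells with 8 or more. Prox1 averaged 10.5 transcripts per cell at 0 Tacr1 transcripts, 5.50 at 1, 1.78 at 2, 1.67 at 3 and 0.519 at 8 or more. Meis2 averaged 1.82 at 0, 6.65 at 2, 7.52 at 3 and 14.0 at 8 or more. The cells just outside the rule, with 2 Tacr1 transcripts, were thus close to those just inside. Rprm ran from 0.806 to 5.59, Plcb1 from 6.64 to 13.3 and Nrp2 from 1.62 to 6.89 between 0 and 8 or more. Calb2 was 7.29 at 0, 18.1 at 4 and 12.7 at 8 or more, and Cbln4 was 0.924 at 0, 1.98 at 2 and 1.31 at 8 or more, so both were highest between the ends. These means pool the cells of all sections and are given as a description.

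The Tacr1/VGLUT2 cells were not uniform. Of 370 cells, 221 (59.7%, 95% Wilson interval 54.7 to 64.6) had 3 or more Meis2 transcripts, against 18.1% of comparison cells, and 149 did not. The interval covers counting error only, and section shares among Tacr1/VGLUT2 cells ran from 42.2% to 80.0%. Cells with Meis2 averaged 4.55 Sema3a, 4.60 Rprm, 11.8 Plcb1 and 2.72 Arc transcripts. Cells without Meis2 averaged 0.309, 1.64, 6.62 and 0.644 of these, and more Calb2 (23.5 against 11.5), Necab1 (10.9 against 2.45), Calb1 (6.03 against 1.64) and Cbln1 (6.16 against 1.82). These means pool all sections. Of the 221 cells with Meis2, 86 (38.9%) lay in the replicate 2 sections, which held 49.5% of all Tacr1/VGLUT2 cells. Comparison cells averaged 7.62 and 9.42 Necab1 transcripts there. They averaged 2.15 and 3.07 in the anterior and intermediate sections of replicate 1, and 5.82 to 8.51 in posterior sections. The part of section in these means was not tested. Median totals of the cells with and without Meis2 were alike, at 524 and 532 transcripts. Tacr1 itself averaged 5.39 and 4.64 in them, and Mdga1 3.53 and 4.38, so neither differed much between them.

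Slc17a7, the gene of VGLUT1, marked a further class. It had 3 or more transcripts in 70 cells (18.9%), against 33.8% of comparison cells, and 49 of the 70 were also among the cells with Meis2. The 70 cells averaged 12.5 Slc17a7 transcripts beside 18.6 of Slc17a6, so both transporters were found in the same segmented cells. Their means of Nwd2 (8.64 against 1.99), Bcl11b (2.80 against 0.913), Cpne4 (10.5 against 3.0), Neurod6 (1.83 against 0.0667) and Nts (4.37 against 1.04) were above those of the other 300 cells. Their median total was 624 transcripts against 511. Whether neighbours contributed to these cells was not tested.

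Smaller classes had other leading genes. The 43 cells with Nts had more Mdga1 (7.60 against 3.39), and the 14 cells with 3 or more Chat transcripts had more Nwd2 (18.6 against 2.65) and almost no Necab1 (0.143 against 6.08). The cells with Chat lay in intermediate replicate 1 (3), posterior replicate 1 (8), posterior replicate 3 (2) and posterior replicate 4 (1). In all, 17.5% of the 80 VGLUT2 cells with Chat were Tacr1/VGLUT2 cells. The 15 cells with Trp73, a transcription factor of the p53 family, had more Nr2f2 (13.5 against 3.95), Tenm3 (12.6 against 4.36) and Cdh13 (9.80 against 2.87), and little Slc17a7 (0.0667 against 2.80). The 25 cells with Ebf3, a transcription factor of the early B cell factor family, had more Oprm1 (11.2 against 2.90), Cbln1 (11.4 against 3.0) and Sncg (4.24 against 0.829). Of these 25 cells, 20 lay in intermediate replicate 2 and 3 in anterior replicate 2. Each class was chosen by its gene, so these means are a description.

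**Figure D5:**
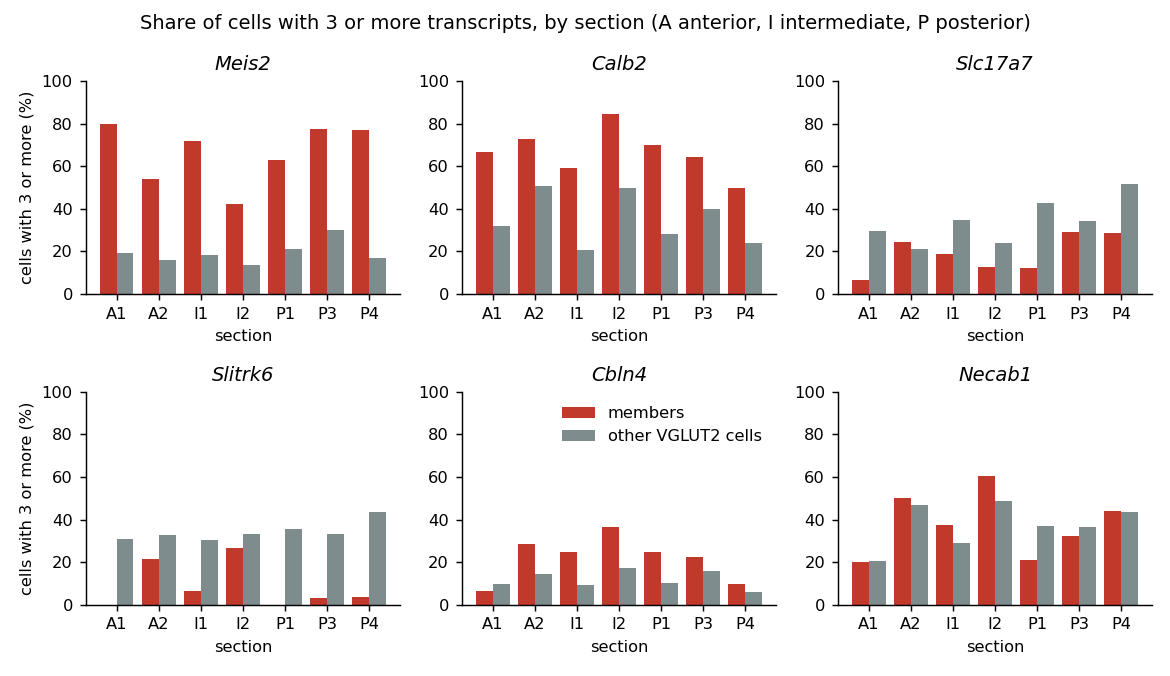
Percent of cells with 3 or more transcripts of each of 6 genes (y axis) in each section (x axis, letter for position and number for replicate). Red bars are Tacr1/VGLUT2 cells ("members") and grey bars comparison cells. Meis2 and Calb2 are more frequent in members in all 7 sections, and Slitrk6 reaches 21.6% and 26.6% of members in the replicate 2 sections while it stays at or below 6.25% in the others.

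Slitrk6, a membrane protein of synapse formation and neurite growth, was divided between sections. It had 3 or more transcripts in 50 Tacr1/VGLUT2 cells (13.5%) and in 34.6% of comparison cells. Of the 50 cells, 16 lay in anterior replicate 2 and 29 in intermediate replicate 2, together 45 (90.0%), whereas these 2 sections held 183 (49.5%) of all Tacr1/VGLUT2 cells. The other sections held 0 (anterior replicate 1), 2 (intermediate replicate 1), 0 (posterior replicate 1), 1 (posterior replicate 3) and 2 (posterior replicate 4). Comparison cells with Slitrk6 did not show this divide: their share was 30.4% to 43.4% in every section. Tacr1/VGLUT2 cells thus made up 1.55% and 2.43% of the VGLUT2 cells with Slitrk6 in the replicate 2 sections and 0% to 0.281% in the others. The 50 cells averaged 33.2 Calb2, 24.6 Necab1, 11.2 Calb1 and 4.66 Cbln4 transcripts, against 13.7, 2.93, 2.20 and 1.37 in the remaining 320. Their median total was 681.5 transcripts against 508 in the remaining cells, and Tacr1 averaged 3.98 against 5.26. Only 2 of the 50 were among the cells with Meis2, and 36 were among the 96 with Cbln4. Of the 14 cells with Ramp3, 12 lay in intermediate replicate 2 and 1 in anterior replicate 2. Ebf3 differed from Slitrk6 in that comparison cells with it were also most frequent in the replicate 2 sections, at 9.61% and 5.10% against 0.369% to 3.45% in the others. Replicates 1 and 2 shared a slide, and whether they differ by animal or by plane of section is not given.

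Expression within the Tacr1/VGLUT2 cells was compared between posterior and other sections. None of 233 genes passed (0.0% of those tested, edgeR), 15 had an unadjusted p under 0.05, and DESeq2 also called 0. The genes with the smallest unadjusted p were Slitrk6, at 0.123, 0.161 and 0.423 transcripts per cell in posterior replicates 1, 3 and 4 and at 0.2, 1.72, 0.5 and 1.87 in anterior replicates 1 and 2 and intermediate replicates 1 and 2 (log2 difference -2.24 ± 0.65, adjusted p = 0.350), and Maob. The posterior and other sections overlapped for Slitrk6, and the replicate 2 sections stood high.

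Whether the difference between Tacr1/VGLUT2 and comparison cells itself changed with position was tested as an interaction, and 1 of 291 genes (0.344%) passed by edgeR, with 18 at an unadjusted p under 0.05. The gene was Necab1, a neuronal calcium-binding protein, with an interaction of -1.38 ± 0.25 (SE) in log2 units (adjusted p = 0.0416). In Tacr1/VGLUT2 cells it was at 1.67, 3.29 and 3.37 transcripts per cell in posterior replicates 1, 3 and 4, against 5.82, 6.15 and 8.51 in the comparison cells. In the anterior sections of replicates 1 and 2 it was at 2.13 and 8.31 against 2.15 and 7.62, and in the intermediate sections at 4.09 and 9.32 against 3.07 and 9.42. Necab1 was thus lower in Tacr1/VGLUT2 cells in all 3 posterior sections and near the comparison cells in the other 4. The call was lost in each of the 7 fits that left out 1 section (adjusted p 0.0609 to 0.356), and DESeq2 called 1 gene higher and 2 lower.

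Tacr1/VGLUT2 cells with 3 or more Cbln4 transcripts were compared with those that had none, in the 3 sections with at least 10 cells of each. These were anterior replicate 2 (21 and 36 cells), intermediate replicate 2 (40 and 46) and posterior replicate 1 (14 and 26). Of 199 genes none passed by edgeR (0.0%), 33 had an unadjusted p under 0.05, and DESeq2 called 6 higher and 2 lower. The smallest unadjusted p values were those of Gpr4 (log2 difference 2.92 ± 0.60) and Slitrk6 (3.12 ± 0.65), higher with Cbln4, and Sema3a (-1.76 ± 0.41) and Meis2 (-1.40 ± 0.33), lower with Cbln4, each in 3 of 3 sections (adjusted p = 0.121 for all 4). Without posterior replicate 1, which left 2 sections that shared replicate number 2, 30 genes were higher and 18 lower, and without anterior replicate 2 there were 0 and 1.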

How the data were processed

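The authors' deposited count table gave whole transcript counts for each gene in each cell of 7 sections, and the deposited cell table named each cell's section and was joined by barcode. Cell sums equalled the deposited totals in 100% of cells, at the depths given above. The submitters' processing notes name Seurat, and no source used here gives its version, the segmentation or filters. Of 297 symbols, 296 matched the RefSeq table.

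Cells were chosen by raw counts, and no doublet caller was run. The members, gene lists and comparisons were chosen with earlier results of these data known. Counts were summed per section and cell class (at least 10 cells) without the 4 genes of the rule and fitted by edgeR 4.0.16 under R 4.3.3: filterByExpr, TMM scaling, a section block, the quasi-likelihood F test and Benjamini-Hochberg adjustment over all genes tested, at 0.05. SE is the log2 difference divided by the square root of F. Direction per section is that of the scaled sums, and levels are mean raw transcripts per cell. Position fits had no block for the cells alone. Named genes were the 15 largest called differences in each direction (10 in other comparisons) with 1 direction in every section, up to 4 called genes of each list, and Cbln4; other genes were named after their values were seen, and some genes that met the rule are not reported here. The test of shares was an exact permutation test, two-sided, in scipy 1.17.1. Intervals cover counting error only. Alternatives were DESeq2 1.42.0, other scaling, filters and cell limits, replicate blocks and leaving out sections.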

Additional observations from a re-analysis of the deposited data

Results flagged for a closer look

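The difference in Necab1 between Tacr1/VGLUT2 cells and other VGLUT2 cells was itself different in posterior sections, by -1.38 in log2 units against the anterior and intermediate sections (edgeR interaction adjusted p = 0.0416). Necab1 was lower in Tacr1/VGLUT2 cells in 3 of 3 posterior sections. In the anterior and intermediate sections it was at 2.13, 8.31, 4.09 and 9.32 transcripts per cell against 2.15, 7.62, 3.07 and 9.42. No fit that left out 1 section kept the call.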

How the results depend on the processing

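Against all other VGLUT2 cells, both counts stayed within 1.5 times over the 26 alternatives, at 58 to 89 genes higher and 58 to 104 lower, except that cells with no Gad transcript gave 58 lower. Sums per replicate number with the replicate block gave 71 and 70. Of the values of 78 called genes, 1904 kept direction and call, 115 lost the call and 3 reversed: Arc at 12 or more Slc17a6 transcripts (0.49) and with no Gad transcript (0.11), and Oprm1 with no Gad transcript (-0.12). In the closer comparison the replicate block gave 23 higher and 5 lower, Prox1 and Slc17a7 at 0 gave 3 and 0, any Slc17a7 level gave 59 and 57, few glial transcripts gave 21 and 9, and leaving out both sections of replicate 2 gave 16 and 21. Leaving out 1 section gave 23 to 34 and 19 to 31. With any Slc17a7 level 15 of the 75 called genes changed sign, among them Arc (-1.98), Plcb1 (-0.43), 2010300C02Rik (-0.35) and Eepd1 (-0.041), and Cbln1 did so with few glial transcripts (-0.035). Of the values of 33 called genes, 370 kept direction and call and 136 lost the call.

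The interaction called 1 gene higher and 2 lower with DESeq2, and 0 on the first slide, without replicate 2 and in each fit that left out 1 section (0 to 0). With the replicate block, only replicate 1 held both posterior and other sections, so the Necab1 interaction of -1.81 rests on 1 posterior section. Cbln4 classes gave 6 and 2 with DESeq2, and 0 to 30 higher and 0 to 18 lower without 1 section; 5 or more Cbln4 transcripts could not be fitted. The share difference turned negative at 5 Slc17a6 transcripts (-0.0147), as a share of all cells (-0.0158), on the first slide (-0.0288) and, over fits without 1 section, ran from -0.233 to 0.46; within replicate 1 it was 0.736, and without both replicate 2 sections 0.856 (exact permutation p = 0.2, the smallest possible). The replicate numbers pair no animals in the labels. Deviations of same-numbered sections correlated at 0.0343 to 0.282 over genes in Tacr1/VGLUT2 cells and at 0.293 to 0.888 in all VGLUT2 cells, and the cause of these changes was not tested. Depth limits the sparse genes, since anterior replicate 1 rests on 15 cells.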

Other observations

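Of the VGLUT2 cells with 3 or more transcripts of a gene, the share that met the Tacr1 limit differed widely between genes, beside 2.05% of all VGLUT2 cells. It was 17.5% of the 80 cells with Chat, 11.5% of the 1566 with Mdga1, 11.2% of the 179 with Npy2r, 9.77% of the 440 with Nts, 8.89% of the 1574 with Rprm and 6.43% of the 3435 with Meis2. It was 0.322% of the 11194 cells with Prox1 and 0.374% of the 3748 with Ramp3. It was also 33.3% of the 24 cells with Sst and 10.0% of the 150 with Trp73, each from 0% to 100% over sections. Over sections the share of Mdga1 ran from 4.55% to 16.8% and that of Rprm from 6.12% to 11.4%. For Chat it ran from 0% to 33.3%, for Nts from 0% to 20.4% and for Npy2r from 5.56% to 50%. For 7 genes, the shares in cells thinned to 300 transcripts were lower than the raw ones in both classes: Meis2 had 52.4% and 12.3%, Mdga1 32.9% and 4.17%, Rprm 28.3% and 5.09%, Sema3a 21.5% and 3.66%, Calb2 62.3% and 31.6%, Slc17a7 12.2% and 29.5%, and Prox1 4.82% and 59.1% in Tacr1/VGLUT2 and comparison cells. Thinning left out 17 and 2070 shallower cells.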
